A study of Mus musculus with 9 samples.

Results

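The variable segments of the mouse immunoglobulin heavy chain (Ighv genes) were described in RNA from 9 libraries. The members were the genes of the expression table whose type was IG_V_gene and whose name began with Ighv, which gave 113 of 55322 genes. The table also held 70 Ighv pseudogenes, which were not members. CD11b+ B cells and CD11b- B cells were sorted from the BM of WT C57BL/6 mice that had received LPS, a component of the bacterial cell wall, into the peritoneum at 5 mg/kg and were examined at 48 h, and peritoneal macrophages (PMs, CD11b+F4/80+) were sorted from untreated WT mice. Each group had 3 libraries, and the sources used here do not say whether a library came from 1 mouse or from several, so the p-values measure the spread between these libraries. Tissue and treatment differed between the PMs and the B cells along with cell type, and the 3 cannot be told apart in a comparison with PMs.

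A heavy chain gene is assembled during B cell development, when 1 variable segment is joined to 1 diversity and 1 joining segment. The product is transcribed from the promoter of the chosen segment, so in a mixed population of B cells the reads on each Ighv gene reflect how many cells chose that segment and how much heavy chain RNA each cell makes. These cannot be told apart in bulk RNA. Macrophages do not rearrange the locus, and their Ighv reads served as the background.

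All 113 genes lie on the minus strand of chromosome 12 in GENCODE release M21 on GRCm38, between positions 113578504 and 116000461, with Ighv5-2 nearest to the diversity segments. The number before the hyphen in a name is the family, a group of segments similar in sequence. The last 300 coding bases of 8 genes are given, 5′ to 3′, with capitals from the codon of the second conserved cysteine to the 3′ end of the segment, the stretch that enters the antigen-binding loop CDR3. They are the most used gene of each library, the gene with the largest log2 fold change of FPKM between CD11b+ and CD11b- B cells (Ighv1-36), and Ighv12-3, which together with Ighv11-2 is known from the phosphatidylcholine-binding receptors of B1 B cells. Sequences and positions are from GENCODE release M21.
Ighv3-6: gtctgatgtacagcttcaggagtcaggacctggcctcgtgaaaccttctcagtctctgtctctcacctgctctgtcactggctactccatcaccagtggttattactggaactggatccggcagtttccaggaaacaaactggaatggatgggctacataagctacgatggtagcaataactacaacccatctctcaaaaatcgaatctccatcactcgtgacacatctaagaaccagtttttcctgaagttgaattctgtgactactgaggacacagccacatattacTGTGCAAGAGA
Ighv6-3: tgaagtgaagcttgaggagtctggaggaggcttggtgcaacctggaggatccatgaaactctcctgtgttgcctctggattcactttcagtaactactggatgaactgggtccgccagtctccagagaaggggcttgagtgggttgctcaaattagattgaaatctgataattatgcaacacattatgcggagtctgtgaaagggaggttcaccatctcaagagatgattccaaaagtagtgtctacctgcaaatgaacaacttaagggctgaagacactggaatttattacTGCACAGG
Ighv1-80: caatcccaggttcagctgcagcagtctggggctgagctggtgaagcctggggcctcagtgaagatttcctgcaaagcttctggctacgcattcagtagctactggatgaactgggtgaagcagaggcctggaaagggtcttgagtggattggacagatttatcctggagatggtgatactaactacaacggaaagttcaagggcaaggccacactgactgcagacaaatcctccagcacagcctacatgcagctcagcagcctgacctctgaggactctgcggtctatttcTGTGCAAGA
Ighv8-8: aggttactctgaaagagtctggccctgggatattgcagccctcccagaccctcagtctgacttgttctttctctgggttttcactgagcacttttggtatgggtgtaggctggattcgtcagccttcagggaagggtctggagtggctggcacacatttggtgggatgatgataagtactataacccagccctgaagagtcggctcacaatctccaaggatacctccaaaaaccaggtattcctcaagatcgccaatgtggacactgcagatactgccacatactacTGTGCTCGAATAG
Ighv6-4: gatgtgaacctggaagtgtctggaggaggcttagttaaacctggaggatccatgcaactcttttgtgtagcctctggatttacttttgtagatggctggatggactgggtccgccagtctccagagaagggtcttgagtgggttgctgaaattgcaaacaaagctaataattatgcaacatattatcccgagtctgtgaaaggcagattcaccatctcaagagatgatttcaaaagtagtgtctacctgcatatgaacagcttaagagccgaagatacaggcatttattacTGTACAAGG
Ighv11-2: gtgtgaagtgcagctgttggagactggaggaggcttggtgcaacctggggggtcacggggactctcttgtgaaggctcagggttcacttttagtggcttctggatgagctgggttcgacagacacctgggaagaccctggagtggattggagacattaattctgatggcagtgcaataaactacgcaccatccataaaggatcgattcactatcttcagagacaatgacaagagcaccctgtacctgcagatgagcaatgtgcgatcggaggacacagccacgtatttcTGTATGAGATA
Ighv1-36: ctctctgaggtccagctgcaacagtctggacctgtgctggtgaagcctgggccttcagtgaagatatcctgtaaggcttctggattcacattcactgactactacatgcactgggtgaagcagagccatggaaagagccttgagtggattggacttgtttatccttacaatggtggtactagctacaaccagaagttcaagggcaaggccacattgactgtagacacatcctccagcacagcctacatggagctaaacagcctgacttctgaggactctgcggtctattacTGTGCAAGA
Ighv12-3: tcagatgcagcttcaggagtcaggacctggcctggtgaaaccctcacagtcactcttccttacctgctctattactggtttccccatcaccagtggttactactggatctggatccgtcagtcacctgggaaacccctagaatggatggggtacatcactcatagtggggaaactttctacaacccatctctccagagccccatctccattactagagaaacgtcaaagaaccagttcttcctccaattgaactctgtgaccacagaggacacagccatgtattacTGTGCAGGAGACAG

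The genes span chr12:114288152-114288582 (Ighv3-6), chr12:114391712-114392169 (Ighv6-3), chr12:115912344-115912776 (Ighv1-80), chr12:115294062-115294504 (Ighv8-8), chr12:114406474-114406961 (Ighv6-4), chr12:114048241-114048812 (Ighv11-2), chr12:114879888-114880321 (Ighv1-36) and chr12:114366521-114366954 (Ighv12-3), each as a leader exon, a short intron and the variable exon. Of the 110 genes in which the cysteine codon, with a tyrosine codon just upstream, was found near the end, 46 end in tgtgcaaga, as Ighv1-80 and Ighv1-36 do, and there were 45 different ends. Ighv11-2 shares its end, tgtatgagata, with Ighv11-1, and the other end printed for a B1-associated gene, tgtgcaggagacag of Ighv12-3, is unlike the common one. Median identity of a gene to its nearest relative was 94.6%, and 12 genes were at least 98% identical to another. Even so, 105 of the 113 genes shared no window of 150 bases with any other annotated transcript. The pair most open to misplaced reads was Ighv1-62-2 and Ighv1-71, with 88.2% and 96.2% of their windows shared, so their separate values are uncertain. Ighv1-62-3 shared 27.7% of its windows with Ighv1-72, and Ighv11-2 shared 4.17% with Ighv11-1. Ighv1-5 overlaps a microRNA gene in the authors' table, and how reads there were counted is not stated in the sources.

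Depth ran from 18014658 to 35251215 reads on genes per library. Both B cell groups expressed B cell markers, with a summed FPKM (fragments scaled to exon length and library size) of 9 genes of 5216 to 6936, against 60.9 to 118 in PMs. Some libraries stood apart from their group. B cell precursor markers (7 genes, among them Rag1, Rag2 and Dntt) summed to 175 FPKM in CD11b- library 3 and 42.3 in CD11b+ library 3, against 0.799 to 3.52 in the other B cell libraries. Plasma cell markers (7 genes) summed to 288, 252 and 641 FPKM in CD11b+ libraries 1, 2 and 3, against 101 to 179 in CD11b- libraries and 93.8 to 154 in PMs. Jchain gave 449 of the 641 in CD11b+ library 3, and Xbp1, which macrophages also express, gave 83.1 to 145 in PMs. Jchain, Xbp1 and Mzb1 were higher in every CD11b+ than in every CD11b- library, while Sdc1, Prdm1, Irf4 and Tnfrsf17 overlapped. Irf4 was highest in CD11b- library 3, at 42.8 FPKM against 22.8 to 24 in CD11b+ libraries. Neutrophil markers (8 genes) summed to 205 to 1516 FPKM in CD11b+ libraries and 1.69 to 2.97 in CD11b- libraries. Macrophage markers (8 genes) summed to 273, 250 and 74.2 FPKM in CD11b+ libraries 1, 2 and 3 and 31.5 to 44 in CD11b- libraries, against 19743 to 54364 in PMs. In PMs Dntt was listed at 0 and Ly6g, a defining neutrophil marker, had no read.

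The Ighv share of reads overlapped between the B cell groups through CD11b- library 3, and that of PMs was a small part of either. Ighv reads made up 0.111%, 0.113% and 0.131% of the reads on genes in CD11b- libraries 1, 2 and 3, and 0.138%, 0.12% and 0.128% in the CD11b+ libraries. The means were 0.118% ± 0.0109 (SD, n = 3) and 0.128% ± 0.00932 (SD, n = 3), a difference of 0.0104 percentage points that was close to either SD, and the values overlapped. Without CD11b- library 3, the library with most precursor markers, the groups did not overlap and the difference was 0.0166, while it was 0.00665 without CD11b- library 1 and 0.00557 without CD11b+ library 1. As a share of the summed FPKM of all genes, the difference was -0.00656 percentage points, so its sign depended on the denominator. As a share of all immunoglobulin reads, Ighv genes gave 4.05% to 4.1% in CD11b- libraries and 4.18%, 3.9% and 2.54% in CD11b+ libraries. The lowest of these was CD11b+ library 3, which also had the most immunoglobulin reads, 5.03% of its reads on genes, and the highest Jchain level. The part of plasma cells in these values was not tested.

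**Figure D1:**
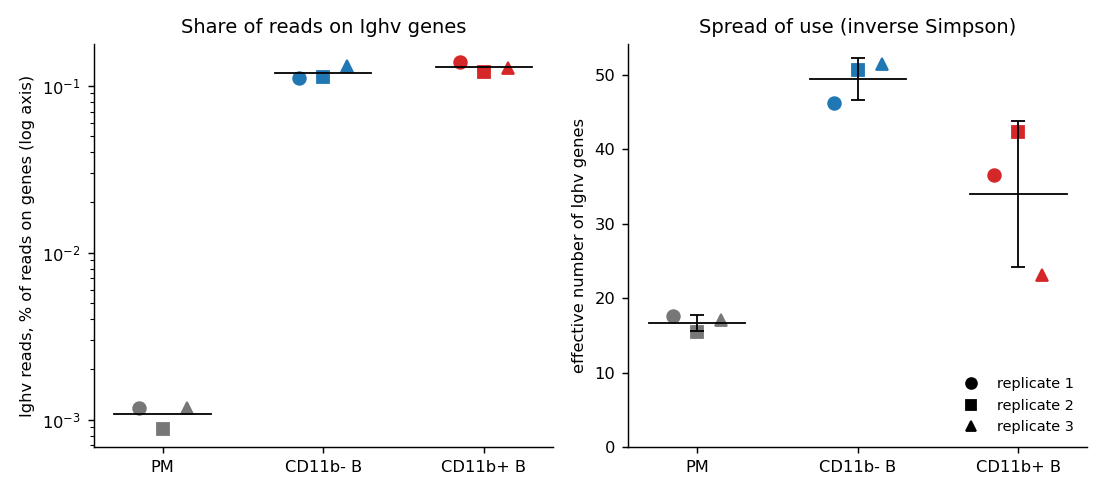
Left, Ighv reads as a percent of reads on genes (log axis) in each library, with a line at the group mean and no error bar. Right, the effective number of Ighv genes with the mean and SD of 3 libraries. The Ighv share of the B cell groups overlaps and PMs lie near 0.001%, while the effective number is 46.2 to 51.5 in CD11b- libraries and 23.1 to 42.3 in CD11b+ libraries.

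Use of the segments was less even in CD11b+ than in CD11b- B cells. Evenness was measured as the inverse Simpson index, the number of equally used genes that would give the same concentration of reads. It was 46.2, 50.7 and 51.5 in CD11b- libraries 1, 2 and 3, and 36.5, 42.3 and 23.1 in the CD11b+ libraries. The groups did not overlap, and CD11b+ libraries were lower in all 3, with means of 49.5 ± 2.87 and 33.9 ± 9.84 (SD, n = 3). Without CD11b+ library 3 the difference of -15.5 became -10.1, and without library 3 of both groups, those with precursor markers, -9.06. The 10 most used genes of each library took 31.1% to 34.3% of its Ighv reads in CD11b- B cells and 42.6%, 37.7% and 54.6% in CD11b+ libraries 1, 2 and 3. It took 18 to 20 genes to hold 50% of the reads in CD11b- libraries, and 13, 15 and 9 genes in CD11b+ libraries. These scores over the members carry no test.

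Nearly the same number of genes was detected in both groups. Between 104 and 106 genes had a read in each CD11b- library, and 104, 105 and 100 in CD11b+ libraries 1, 2 and 3. Ighv16-1 and Ighv1-24 had no read in any of the 9 libraries, and counting error allows up to 3 reads for each library. When each library was scaled down to 211 Ighv reads, the total of the PM library with the fewest, 64.7 to 65.5 genes were expected with a read in CD11b- libraries and 57.2, 61.5 and 52.5 in CD11b+ libraries.

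The same gene led all 3 CD11b- libraries, and a different gene led each CD11b+ library. Ighv3-6, of family 3, took 6.64%, 4.59% and 4.76% of Ighv reads in CD11b- libraries 1, 2 and 3, and 3.46%, 3.1% and 3.38% in CD11b+ libraries. All 3 CD11b+ values lay below all CD11b- values, but the gene did not pass the test (log2 fold change of FPKM -0.54, SE 0.17, adjusted p = 0.521, limma). CD11b+ library 1 was led by Ighv6-3 with 6.21%, library 2 by Ighv1-80 with 5.31% and library 3 by Ighv8-8 with 11.4%. The mean share of the leading gene was 5.33% ± 1.14 in CD11b- and 7.65% ± 3.31 in CD11b+ libraries (SD, n = 3), a difference of 2.32 percentage points that became 0.427 without CD11b+ library 3 and 0.141 without library 3 of both groups.

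Ighv8-8, whose sequence ends in tgtgctcgaatag, took 1.62%, 1.56% and 2.39% of Ighv reads in CD11b- libraries and 3.07%, 1.01% and 11.4% in CD11b+ libraries. Only CD11b+ library 3 was far above the rest, and the groups overlapped. Its 95% exact binomial interval was 11.1% to 11.7%, so counting error was small beside the distance to the other libraries. Such intervals cover counting error only, since amplified reads without molecular identifiers are not independent molecules. Ighv1-9 took 2.66%, 2.9% and 2.84% in CD11b- libraries and 4.1%, 3.44% and 9.64% in CD11b+ libraries. All CD11b+ values were above all CD11b- values, again with library 3 the highest.

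Ighv6-3 varied the other way among CD11b+ libraries. It took 2.99%, 2.61% and 2.34% in CD11b- libraries and 6.21%, 1.92% and 0.358% in CD11b+ libraries 1, 2 and 3, so that CD11b+ library 1 was the highest and library 3 the lowest of the 6. Ighv1-78 took 0.986% to 1.11% in CD11b- libraries and 4.95% in CD11b+ library 2, with 0.643% and 1.22% in CD11b+ libraries 1 and 3. Ighv4-1, the single member of family 4, took 3.99% in CD11b+ library 1 and 0.562% to 1.35% in the other B cell libraries. Each of these was high in 1 CD11b+ library. Ighv1-72, the segment of the classic antibody response to the hapten NP, took 2.45% to 2.93% in CD11b- and 1.93% to 3.23% in CD11b+ libraries, with overlap. Ighv1-55, frequent in naive repertoires, took 2.16% to 2.32% in CD11b- libraries and 4.54%, 2.4% and 3.55% in CD11b+ libraries, above them in all 3. Ighv1-53 took 1.42% to 1.69% in the 6 B cell libraries. Ighv8-12 took 2.65%, 2.48% and 1.61% in CD11b- libraries and 2.25%, 2.27% and 1.76% in CD11b+ libraries, with overlap.

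**Figure D2:**
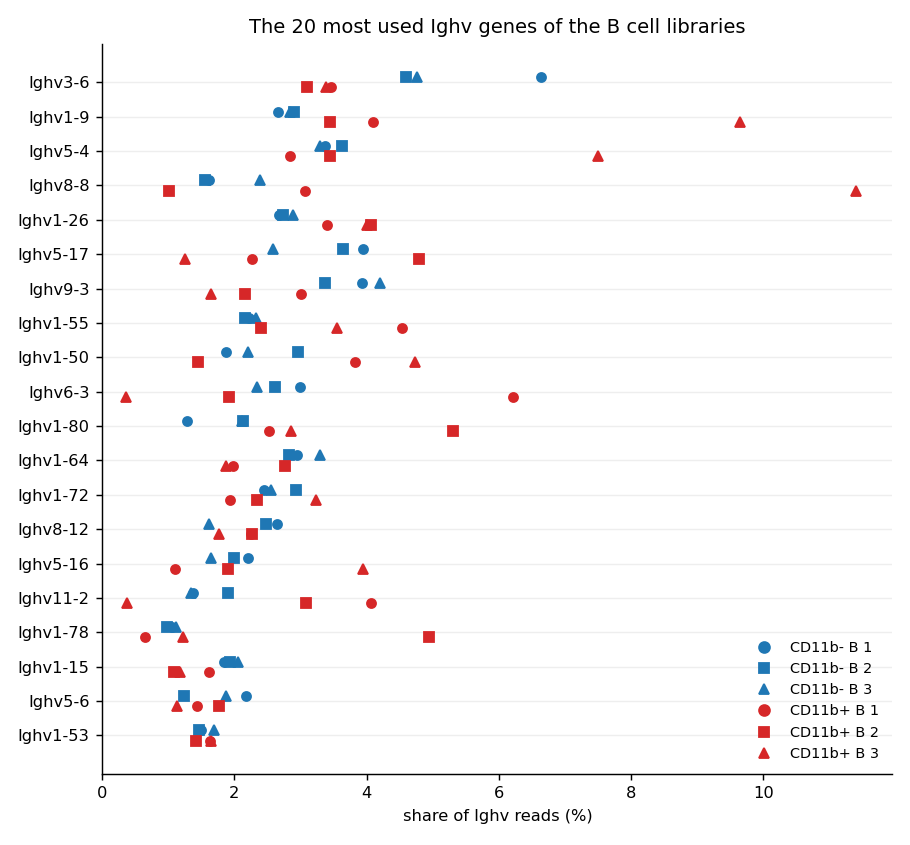
Share of Ighv reads (percent) in each of the 6 B cell libraries for the 20 genes with the highest mean share, with CD11b- libraries in blue and CD11b+ libraries in red. Blue points lie close together for most genes, while Ighv8-8 (11.4%), Ighv1-9 (9.64%) and Ighv5-4 (7.5%) stand out in CD11b+ library 3.

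Use was repeated closely among CD11b- libraries and less closely among CD11b+ libraries. Over the 113 genes, Pearson's r of the shares was 0.94 to 0.96 for the 3 pairs of CD11b- libraries, 0.50 to 0.64 for the 3 pairs of CD11b+ libraries and 0.53 to 0.79 for the 9 pairs across the groups. Spearman's rho was 0.96 to 0.98, 0.85 to 0.90 and 0.87 to 0.93. The points are genes of the same libraries and no p is given. CD11b+ libraries were thus no more like each other than like CD11b- libraries. Among the 68 genes with a mean of at least 100 reads in the B cell libraries, the median coefficient of variation of the share was 17.3% over CD11b- libraries and 42.8% over CD11b+ libraries, and it was larger in CD11b+ libraries for 58 of the 68.

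**Figure D3:**
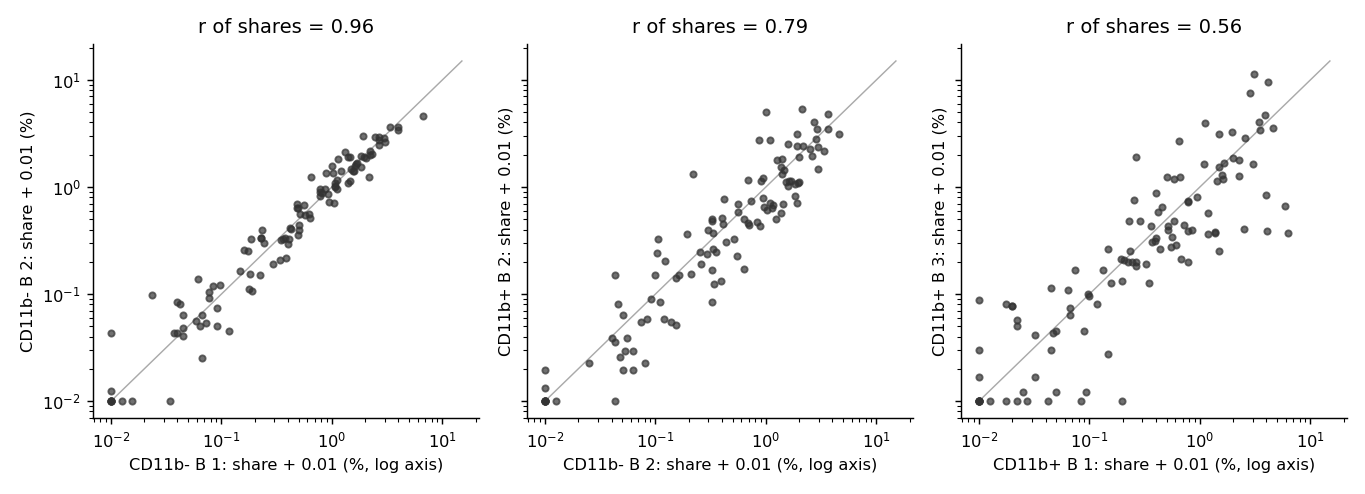
Share of Ighv reads plus 0.01 (percent, log axes) for 113 genes in a pair of CD11b- libraries, a pair across the groups and a pair of CD11b+ libraries, each point 1 gene and the line equal use. The points hug the line in the first panel (r = 0.96) and scatter in the last (r = 0.56).

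Some genes were used far more in a CD11b+ library than in CD11b- libraries, and more were used far less. Genes used over 3-fold more than the CD11b- mean numbered 5, 3 and 4 in CD11b+ libraries 1, 2 and 3, among 101 genes with a mean of 10 or more reads, and took 13.1%, 6.5% and 24.4% of Ighv reads there. Genes used over 3-fold less than the CD11b- mean numbered 17, 10 and 28 in CD11b+ libraries. Each CD11b- library was set against the mean of the other 2 CD11b- libraries, a different reference from the mean of 3 used above, and there 0, 0 and 1 genes were over 3-fold more used and 2, 1 and 1 over 3-fold less. The 8 genes over the limit in a CD11b+ library were Ighv1-36, Ighv1-4, Ighv1-63, Ighv1-78, Ighv1-9, Ighv4-1, Ighv8-8 and Ighv12-3. Only Ighv1-4 passed the 3-fold limit in all 3 CD11b+ libraries. Ighv1-63 took 0.225%, 0.383% and 0.495% in CD11b- libraries and 1.49%, 0.121% and 3.13% in CD11b+ libraries, high in 2 of the 3 and lowest of all in the other.

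No Ighv gene passed the test between CD11b+ and CD11b- B cells. All but 6 of the 113 genes passed the filter on low values (a mean FPKM of 0.05 or more) and entered limma on log2(FPKM + 1), and 0 of them had an adjusted p under 0.05, where 0.0689% of all 21778 genes tested were called higher and 0% lower. At an unadjusted p under 0.05, 7 Ighv genes were higher and 29 lower, beside a background of 4.65% and 3.04% of all genes. edgeR on whole reads also called 0, where 0.269% of all genes were called higher and 0% lower. DESeq2 called 1 Ighv gene higher and 6 lower, where the background was 1.45% and 0.282%. The mean was lower in CD11b+ B cells for 73 of these genes and higher for 34, and the median log2 fold change was -0.35, against 0.03 over all genes tested. Without library 3 of both groups 0 Ighv genes were called, where 0.135% of all genes were called in either direction, and the median was -0.15. All 3 CD11b+ FPKM values lay below all CD11b- values for 30 Ighv genes and above them for 5, where the background was 6.32% and 8.63% of all genes. With 3 libraries against 3, an exact two-sided permutation test of a single gene cannot give less than 0.1, and a p that misses the threshold does not show that the groups were alike.

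The 5 genes with a higher FPKM in every CD11b+ library were all of family 1. By share of Ighv reads 6 genes were higher in every CD11b+ library, the 5 above and Ighv1-55, and more were lower. Among the 68 genes with a mean of at least 100 reads in the B cell libraries, 5 were higher, 21 lower and 42 overlapped. Such shares exist only for Ighv genes, so they have no background of all genes. Ighv1-36 had an FPKM of 11.8, 6.69 and 7.91 in CD11b- libraries and 232, 45 and 23.9 in CD11b+ libraries. The groups did not overlap, and the highest value was that of CD11b+ library 1, where its share was 22.3-fold the CD11b- mean (log2 fold change 2.75, SE 0.71, adjusted p = 0.387, limma). Ighv1-4 had an FPKM of 2.13, 3.02 and 1.07 in CD11b- libraries and 9.12, 7.84 and 6.95 in CD11b+ libraries. It was the steadiest of the 5 across CD11b+ libraries after Ighv1-26, at a low level (log2 fold change 1.59, SE 0.28, adjusted p = 0.147, limma). Ighv1-80, Ighv1-9 and Ighv1-26 had log2 fold changes of 1.02, 0.99 and 0.58.

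Genes lower in CD11b+ B cells were more numerous. Ighv10-3, of family 10, had the lowest adjusted p of the members. Its FPKM was 67.7, 60 and 61.9 in CD11b- libraries and 34.4, 35 and 26.9 in CD11b+ libraries, without overlap (log2 fold change -0.96, SE 0.14, adjusted p = 0.0922, limma). Ighv1-5 had an FPKM of 40.3, 54 and 49.8 in CD11b- libraries and 19, 21.1 and 10.8 in CD11b+ libraries, again without overlap (log2 fold change -1.49, SE 0.25, adjusted p = 0.126, limma). Ighv1-71, Ighv3-1, Ighv15-2 and Ighv1-23 were also lower in all 3 CD11b+ libraries, with log2 fold changes of -1.94, -1.57, -1.55 and -1.47. The separate value of Ighv1-71 is uncertain, since it shares most of its sequence windows with Ighv1-62-2. In CD11b+ library 3, Ighv3-1 had 0 reads and Ighv1-71 and Ighv1-23 had 1 read each.

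**Figure D4:**
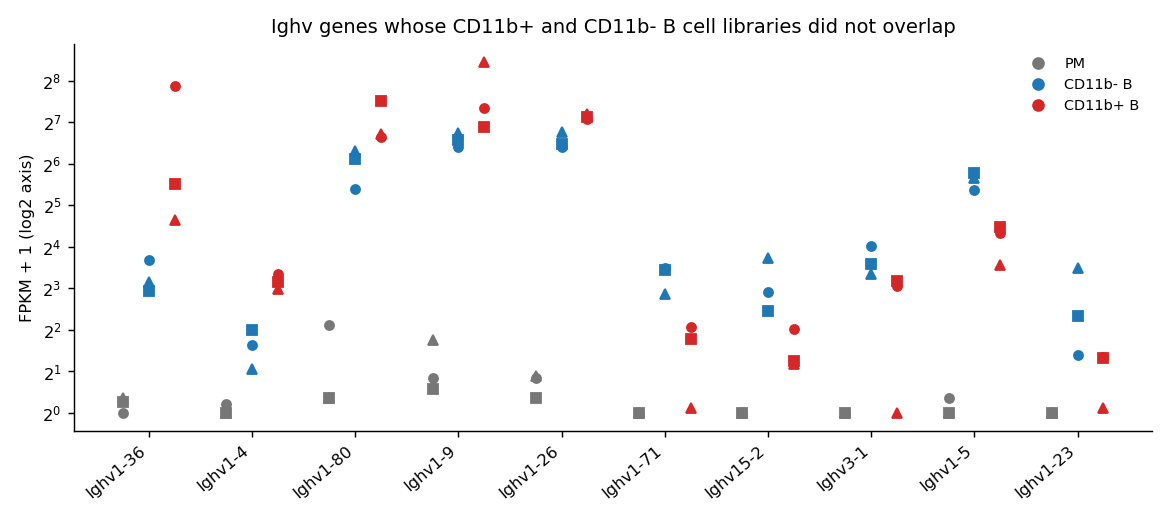
FPKM + 1 (log2 axis) of 5 genes with a higher and 5 with a lower FPKM in every CD11b+ library, with circles, squares and triangles for replicates 1, 2 and 3. Ighv1-36 reaches 232 FPKM in CD11b+ library 1, and Ighv3-1 is at 0 in CD11b+ library 3.

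By family, 8 of the 15 families with reads did not overlap between the groups. Family 1 (53 genes, also called J558), the largest, took 45.5%, 48.2% and 47.5% of Ighv reads in CD11b- libraries and 51.8%, 53% and 52.2% in CD11b+ libraries. It was the only family higher in all 3 CD11b+ libraries. Families 2, 3, 7, 9, 10, 13 and 15 were lower in all 3, and since shares sum to 100% a higher share of 1 family lowers the others.

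Family 10 (DNA4, 2 genes) took 4.35%, 3.84% and 3.54% in CD11b- libraries and 2.31%, 2.16% and 1.17% in CD11b+ libraries. Family 3 (36-60) took 7.64%, 5.4% and 5.43%, and 3.89%, 3.91% and 3.66%. Both lay lower in every CD11b+ library, and Ighv3-6 held most of family 3. Families 4, 6, 8, 11, 12 and 14 spread widely among CD11b+ libraries, with family 8 at 5.57%, 3.9% and 13.6% and family 6 at 7.58%, 3.75% and 0.867%.

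**Figure D5:**
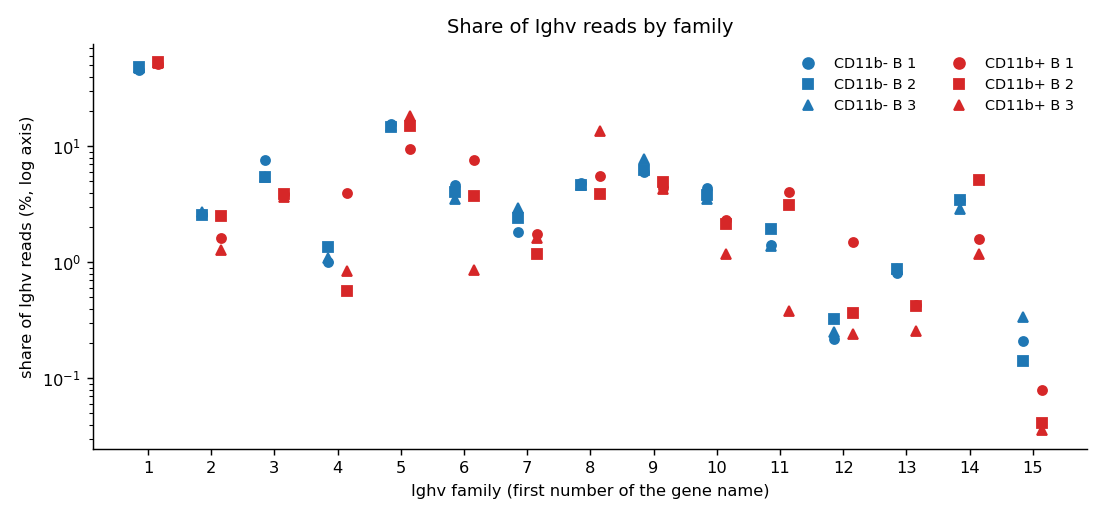
Share of Ighv reads (percent, log axis) by family in the 6 B cell libraries, family 16 left out for want of reads. Family 1 takes 51.8% to 53% in CD11b+ libraries and 45.5% to 48.2% in CD11b- libraries, and among CD11b+ libraries family 6 spans 0.867% to 7.58% and family 11 spans 0.38% to 4.07%.

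Both B1-associated segments differed widely among CD11b+ libraries, highest in library 1 and lowest in library 3. Ighv11-2 took 1.38%, 1.91% and 1.35% in CD11b- libraries and 4.06%, 3.09% and 0.38% in CD11b+ libraries 1, 2 and 3, high in the first 2 and lowest of all in the third. Ighv12-3 took 0.22%, 0.324% and 0.249% in CD11b- libraries and 1.49%, 0.364% and 0.242% in CD11b+ libraries, with CD11b+ libraries 1 and 2 above all CD11b- libraries and library 3 among them. B1 B cell markers (6 genes) summed to 81.2, 61.3 and 70.2 FPKM in CD11b+ libraries and 23 to 28.9 in CD11b- libraries. Most of the sum came from Zbtb32, at 55.7, 32.4 and 19.9 FPKM against 1.5 to 5.25, and Ccr6, at 15.4, 19.7 and 39 FPKM against 13.2 to 20.9. Cd5, a defining marker of B1a cells, was at 0.504 to 0.576 FPKM in CD11b+ and 0.247 to 0.444 in CD11b- libraries. The part of these markers in the use of these segments was not tested. Ighv5-2, the functional gene nearest to the diversity segments and frequent in early precursors, took 0.634%, 1.22% and 1.41% in CD11b- libraries and 0.441%, 0.495% and 0.644% in CD11b+ libraries. In the same order, precursor markers summed to 0.799, 1.55 and 175 FPKM and to 2.09, 3.52 and 42.3 FPKM. Their part in the use of Ighv5-2 was not tested.

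By position, the genes were split into 38 nearest to the diversity segments, 38 in the middle and 37 farthest from them. The farthest took 33.7%, 35.2% and 35.8% of Ighv reads in CD11b- libraries and 36.4%, 37.8% and 44.4% in CD11b+ libraries, without overlap. The nearest took 31.7% to 33.3% and 26.4% to 31.7%. The farthest group includes Ighv8-8 and Ighv1-80.

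Against PMs most Ighv genes were higher in B cells. Of the 113 genes, 7 were below the filter in each comparison. In CD11b- B cells 101 of the 106 genes tested were called higher and 0 lower (limma, adjusted p under 0.05), where 25.8% of all genes were called higher and 11% lower, with a median log2 fold change of 4.0. In CD11b+ B cells 93 of 106 were called higher and 0 lower, where the background was 21.5% and 8.78%, with a median of 3.82. These comparisons share the PM libraries. Ighv3-6 had log2 fold changes of 6.81 (SE 0.19, adjusted p = 4.97e-07, limma) in CD11b- and 6.27 (SE 0.20, adjusted p = 6.75e-07, limma) in CD11b+ B cells.

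PMs held 211, 258 and 236 Ighv reads in libraries 1, 2 and 3, a mean share of 0.00107% ± 0.000166 (SD, n = 3) of reads on genes, which was 0.91% of the CD11b- mean and 0.837% of the CD11b+ mean. Of the 113 genes, 60, 48 and 51 had a read in PM libraries 1, 2 and 3.

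The genes with most reads differed between the PM libraries. Ighv11-2 gave 3, 31 and 34 reads in PM libraries 1, 2 and 3, or 1.42%, 12% and 14.4% of their Ighv reads, with 95% exact binomial intervals of 8.31% to 16.6% and 10.2% to 19.5% in libraries 2 and 3, both above the highest B cell share of 4.06%. Ighv12-3 gave 0, 6 and 17 reads, or 7.2% in PM library 3. Ighv6-4 gave 33, 31 and 0 reads, against 3 to 32 reads in B cell libraries with 31294 to 45003 Ighv reads each, and it was not called higher in B cells (log2 fold change -0.39, SE 0.66, adjusted p = 0.653 for CD11b- B cells against PMs, and -0.63, SE 0.70, adjusted p = 0.491 for CD11b+ B cells, limma). Ighv2-2 gave 23, 0 and 1 reads and Ighv1-80 gave 21, 3 and 2. The 5 most used genes held 43.6%, 50% and 46.2% of the Ighv reads of PM libraries 1, 2 and 3, and r was 0.09 to 0.37 between pairs of PMs. Between a PM and a B cell library r was 0.21 to 0.46, so PM libraries were no more like each other than like B cell libraries. Ighv7-2 had 5 reads in PM library 2 and none in the others.

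Of 31 genes for locus recombination, the surrogate light chain, heavy and light chain constant regions, the receptor signalling chains Cd79a and Cd79b, and octamer and other transcription or locus factors (among them Pax5, Ebf1 and Ctcf), 1 was called higher and 0 lower in CD11b+ against CD11b- B cells, where 0.0689% of all genes were called higher and 0% lower. It was Ighg2c, a constant region used after class switching (log2 fold change 4.28, SE 0.41, adjusted p = 0.0184, limma). Ighm and Ighd, the constant regions of naive B cells, had log2 fold changes of 0.36 and -0.07 and were not called. Jchain, which joins secreted IgM and IgA, had an FPKM of 101, 83.9 and 449 in CD11b+ libraries and 6.18 to 22.7 in CD11b- libraries, highest in the library with the least even Ighv use. Of the other plasma cell markers, Sdc1, Prdm1, Irf4 and Tnfrsf17 overlapped between the groups. Whether secreting cells carried the segments that stood out was not tested.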

How the data were processed

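RNA of 3 PM, 3 CD11b- B cell and 3 CD11b+ B cell libraries was made into cDNA with a SMART-seq HT kit. Per the study's methods and the submitters' processing notes, the authors trimmed read pairs (Trim Galore 0.4.4, Trimmomatic 0.36, cutadapt 1.16), mapped them to GRCm38 with STAR 2.7.2b and counted with featureCounts 1.6.1. The notes also name GRCm39, and the positions in the authors' table are not those of GENCODE M21, so positions here are those of M21 by identifier. The authors deposited FPKM for 55322 genes and, for 11063 genes, size-factor normalized counts, a signal per gene that holds 101 Ighv genes. A table of cluster labels was not used. Whether reads that map to several genes were counted is not stated, and segments mutated or joined in B cells may map less well.

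Undoing the division by length and library total gave whole reads for 100% of values above 0 (within 0.05 read), and these equalled the second table. Shares are percents of these reads. Tests used limma 3.58.1 (R 4.3.3, trend, two-sided) on log2(FPKM + 1), which understates changes of low genes, keeping a mean FPKM of 0.05 or more over the 6 libraries fitted and Benjamini-Hochberg adjustment over all genes. edgeR 4.0.16 and DESeq2 1.42.0 on whole reads were alternatives. The tests were run on simulated data first. At the spread estimated from the B cell libraries many of the changes built into those data were missed, so a count of 0 is weak evidence. Fewer still of the larger changes were recovered in the comparisons with PMs. The limit first set on recovery was not met at a fixed spread that was also simulated, and was then applied only at a lower fixed spread.

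The members, lists and tests were chosen with earlier results of these data known. The genes named were drawn from the 20 most used in B cells, the 5 most used in PMs and the leading gene of each library. Further sources were the 5 largest differences without overlap in each direction, and Ighv5-2, Ighv11-2, Ighv12-3, Ighv1-72, Ighv1-55, Ighv6-3 and single members of families. Ighv10-3, Ighv1-63, the genes called by DESeq2, the pairs that share sequence and genes with few reads were named after their values were seen. The 3-fold limit, the minimums of 10 and 100 reads, the split by position, the 150-base windows, the segment ends and the sequences printed were chosen then too. A search of promoters for motifs was planned and not run, as no Ighv promoter sequence was in the reference tables used here.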

Additional observations from a re-analysis of the deposited data

Results flagged for a closer look

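Ighv pseudogenes, which no comparison used, gave reads above the PM level. They made up 0.00151% ± 0.000538 (SD, n = 3) of reads on genes in CD11b- B cells and 0.0008% ± 0.000216 (SD, n = 3) in CD11b+ B cells, against 5.74e-05% in PMs, where all 31 reads lay in library 1. All 3 CD11b- libraries (382, 441 and 683 reads) were above all CD11b+ libraries (218, 272 and 218 reads). The difference between the B cell groups was not tested. Ighv1-2 had the most reads, with 75, 158 and 249 reads in CD11b- libraries and 43, 101 and 93 in CD11b+ libraries.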

How the results depend on the processing

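In CD11b+ against CD11b- B cells, 0 Ighv genes were called under 19 alternatives, and DESeq2 called 7, where 1.45% of all genes were called higher and 0.282% lower: Ighv1-36 higher (log2 fold change 3.48), and Ighv1-5 (-1.53), Ighv10-3, Ighv14-4, Ighv1-62-2, Ighv1-75 and Ighv1-82 lower. The cause was not tested. With a replicate block by the number in the title 0 genes were called, and likewise by the number in the description. By title, deviations of same-numbered libraries correlated at 0.20, -0.01 and 0.17, against -0.22 to 0.10 for libraries with different numbers. These values do not settle whether the libraries were paired. By description only 2 pairs shared a number, at 0.20 and 0.17, a hint from the data and not from the design. Against PMs, all alternatives gave 76 to 99 genes in CD11b+ and 92 to 102 in CD11b- B cells, with the replicate block at 94 and 101, and leaving out 1 library gave 86 to 99 and 100 to 101. Under these alternatives 5.18% to 36.5% of all genes were called higher in CD11b+ and 6.1% to 40% in CD11b- B cells, against 67.3% to 97.7% and 83.2% to 98.9% of the Ighv genes tested. The difference in Ighv share, 0.0104 percentage points, was -0.00656 as a share of the summed FPKM of all genes and -0.527 as a share of immunoglobulin reads, so its sign depended on the denominator, and without 1 library it ran from 0.00557 to 0.0166, the last without CD11b- library 3, when the groups no longer overlapped. The difference in effective number, -15.5, ran from -19.7 to -10.1 without 1 library, and was -14.5 with Shannon entropy. The difference in the leading gene's share ran from 0.427 to 3.49. Between 8 and 10 families did not overlap. Leaving out libraries can only keep or raise this count, so those settings could not have lowered it. Leaving out library 3 of both groups was chosen after seeing the data, and gave a difference in Ighv share of 0.017, 10 families without overlap and a difference in mean r of -0.32. The mean r of CD11b+ pairs minus that of CD11b- pairs, -0.38, was -0.09 with Spearman's rho and -0.08 with log2 shares, alternatives chosen after seeing the data, and ran from -0.44 to -0.31 without 1 library. The 5 largest differences without overlap in each direction kept the sign of their log2 fold change in all 190 alternative fits. None of these genes was called in the main test. They were chosen for having no overlap, so leaving out a library could not reverse them. Reversal was not examined for the counts of called genes. With 211 to 258 Ighv reads in a PM library, the interval of a gene's share reached ± 5.15 percentage points, against 0.3 in B cell libraries with 31294 to 45003 Ighv reads.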
